A study of Rattus with 12 samples.

Results

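The genes described here are those of the potassium channels, the membrane proteins that let potassium leave or enter a cell, together with their auxiliary subunits. They were chosen as the rows of the count table whose symbol begins with Kcn, without the G-protein-gated channel genes Kcnj3, Kcnj5, Kcnj6 and Kcnj9, and with a summed count of 100 or more over 12 cultures. Of 91 such rows, 4 were left out by name, 14 had fewer than 100 counts in all, and 73 remained out of 17337 genes in the table. The nearest to this limit were Kcnh8 inside, with a summed count of 141, and Kcnk5 outside, with 71. The 73 genes are 36 voltage-gated subunits, 12 auxiliary subunits, 7 subunits of calcium- and sodium-activated channels, 8 inward rectifiers and 10 two-pore leak channels. Of these, 72 passed the filter on low counts and were tested, and Kcnj13, an inward rectifier, did not pass it.

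RNA was sequenced from co-cultures of Sprague Dawley rat cortical neurons, astrocytes and oligodendrocyte precursor cells bought from suppliers. Untreated cultures (0 μM fentanyl) carry the letters A, G, M and P. Low dose cultures (0.01 μM for 4 days) carry B, H, N and Q, and high dose cultures (10 μM for 4 days) carry C, I, O and R. Fentanyl is an agonist of the mu opioid receptor. The study calls the 4 cultures of a condition biological replicates, and no source used here says whether they came from separate animals or seedings, so the p-values measure only the spread between these cultures. In alphabetical order the letters form 4 sets of 1 culture per dose, here called A-B-C, then G-H-I, then M-N-O, and last P-Q-R. What the cultures of a set share is given neither in the labels nor in the study's methods.

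Potassium channels set the resting potential of a neuron, end the action potential and limit how often it fires. Voltage-gated channels open on depolarization, the calcium- and sodium-activated ones when these ions enter, and two-pore channels leak at rest. In glia, inward rectifiers take up the potassium that active neurons release. The G-protein-gated inward rectifiers left out above are among the channels on which opioid receptors act.

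Total counts per culture ranged from 12059872 to 24813893. Levels are given below in CPM after TMM scaling (counts scaled to a common library size), which allow a gene to be compared between cultures but not with another gene, since they hold no correction for transcript length. Markers of the seeded cells were found in the cultures, with none of 14 neuronal, 11 astrocyte and 7 precursor markers at 0 in all of them. The precursor list held 8 markers, of which 7 had a row in the count table. Untreated culture G stood apart. Its 14 neuronal markers summed to 377 CPM against 3468 to 5369 in the other 11 cultures, and each of the 14 was at its lowest in G. Microglial markers summed to 31.4 to 36.5 CPM in P, Q and R and to 253 to 1084 in the other 9. In bulk RNA, fewer cells of a type and less RNA per cell cannot be told apart. The part of these differences in the results below was not tested.

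In the edgeR quasi-likelihood fit with 1 factor of unwanted variation, no potassium channel gene passed the thresholds of the study, an adjusted p under 0.05 and an absolute log2 fold change above 0.5. This held for each dose against untreated and for the 2 doses against each other, and for all 12271 genes tested (0% in each comparison). The study itself, with edgeR and RUVseq at these thresholds, reported differentially expressed genes in each of the 3 comparisons. It does not give its RUVseq procedure or number of factors, and the source of the difference was not tested. At an unadjusted p under 0.05 stood 1 of the 72 genes in low dose vs. untreated (Kcna1), 2 in high dose vs. untreated (Kcnc4 and Kcnq5) and none in high dose vs. low dose. Of all genes, 0.742%, 1.19% and 1.17% did so. The median log2 fold change of the 72 genes was 0.17, 0.18 and 0.03, and that of all genes was 0.01, 0.00 and -0.01. Leaving out culture G alone, the first 2 medians were 0.02 and 0.01. With G left out and the letter set as a term in the model in place of the factor, they were -0.07 and -0.02. That second model, called the letter-set model below, called none of the 72 genes in any comparison, while it called 0%, 0.122% and 0.113% of 12337 genes in the 3 comparisons.

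**Figure D1:**
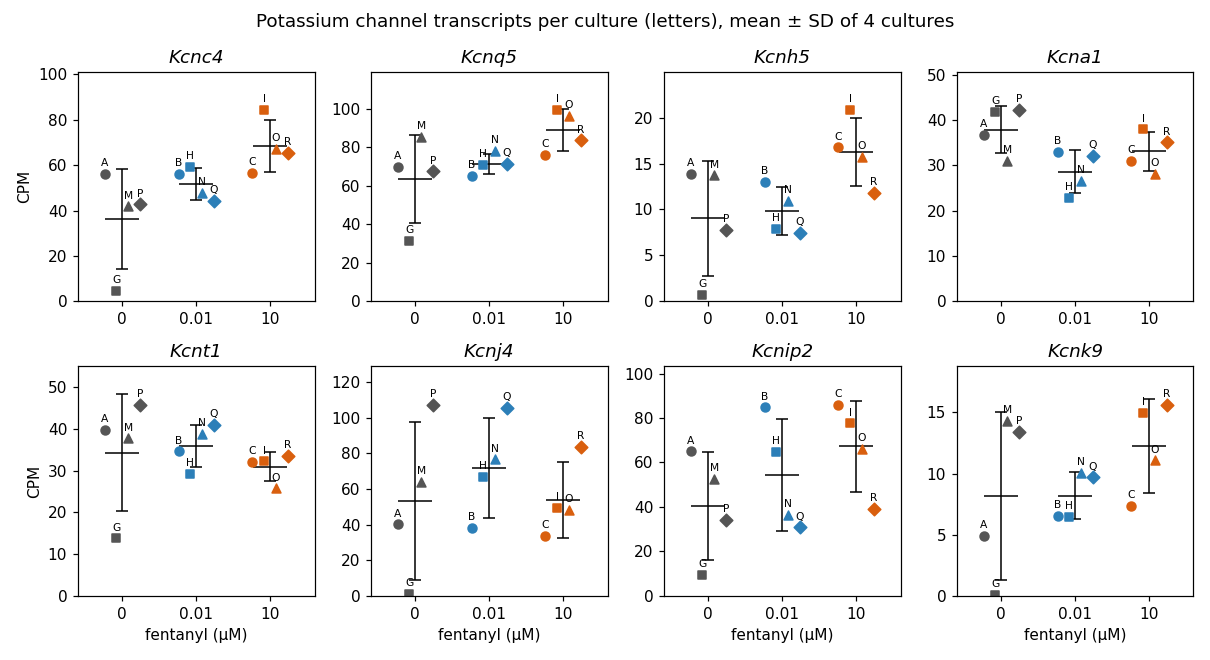
CPM (vertical axis, from 0) of 8 potassium channel genes in each culture against fentanyl dose (horizontal axis), with culture letters, symbol shapes for letter sets, and the mean ± SD of 4 cultures as lines. Kcnc4 in the high dose cultures lay between 56.6 and 84.2 CPM, above all untreated cultures, and G was the lowest culture for every gene shown except Kcna1.

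Kcnc4 encodes Kv3.4, a fast-inactivating channel that shortens action potentials, also at axon terminals. It was at 56.2, 4.73, 41.8 and 42.8 CPM in untreated A, G, M and P, at 56.1, 59.3, 47.8 and 44.2 CPM in low dose B, H, N and Q, and at 56.6, 84.2, 67.3 and 65.5 CPM in high dose C, I, O and R. The high dose cultures all lay above the untreated ones, by a narrow margin between C and A. No other potassium channel gene had 4 high dose values above the 4 untreated values, which 0.359% of all genes showed. The log2 fold change was 0.92 (SE 0.27, unadjusted p = 0.0060, adjusted p = 1.0, edgeR). The exact two-sided permutation test gave 0.0286, the smallest p that 4 against 4 cultures allow. Any gene without overlap gets this p, so it adds nothing to the lack of overlap. In the letter-set model without G the log2 fold change was 0.46 (SE 0.12, adjusted p = 0.253, edgeR). With 4 factors of unwanted variation the gene passed the thresholds at 0.65 (edgeR, adjusted p = 0.0481), and over the 25 alternatives its adjusted p ran from 0.0449 to 1. Within the letter sets, log2(CPM + 1) at the high dose lay above untreated by 0.60 in P-Q-R, 0.67 in M-N-O, 3.89 in G-H-I and 0.01 in A-B-C. Against the low dose, the differences in the same order were 0.56, 0.48, 0.50 and 0.01. Thus A-B-C held nearly no difference for Kcnc4 in either comparison.

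Kcnc1 encodes another Kv3 channel, which allows fast firing. It was at 23.6 to 27.9 CPM in untreated A, M and P, at 2.85 in G, at 20.1 to 26.0 at the low dose and at 24.5 to 27.3 at the high dose, and the doses overlapped. Its log2 fold change at the high dose vs. untreated was 0.38 (SE 0.29), and in the letter-set model without G 0.07 (SE 0.09). Against the low dose it lay higher in each of the 4 sets, with 0.18 (SE 0.29) in the fit of all cultures and 0.19 (SE 0.08, adjusted p = 0.330, edgeR) in the letter-set model.

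The M-current holds neurons below their firing threshold and is carried by the Kv7 subunits. Kcnq5 was at 69.9, 31.4, 85.4 and 67.5 CPM in A, G, M and P, at 65.1, 70.7, 77.9 and 71.5 in B, H, N and Q, and at 76.1, 99.2, 96.4 and 83.6 in C, I, O and R. The high dose value was the highest of its letter set in each of the 4 sets, although untreated M lay above C and R. The log2 fold change was 0.41 (SE 0.18, unadjusted p = 0.0479, adjusted p = 1.0, edgeR) against untreated and 0.32 (SE 0.18) against the low dose. In the letter-set model without G these were 0.23 (SE 0.07, adjusted p = 0.345) and 0.31 (SE 0.06, adjusted p = 0.0973).

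Kcnq3, of the same family, varied mainly by letter set, with 25.6 to 28.6 CPM in A, B and C, 36.8 to 127.7 in the other 8 cultures and 2.98 in G. At the high dose vs. low dose the letter-set model gave it 0.27 (SE 0.14).

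Among the ether-a-go-go family, slowly gating channels related to the cardiac hERG channel, Kcnh5 had the highest log2 fold change of the 72 genes at the high dose vs. low dose. It was at 13.9, 0.713, 13.7 and 7.82 CPM in A, G, M and P, at 13, 7.91, 11 and 7.43 in B, H, N and Q, and at 16.8, 20.8, 15.7 and 11.8 in C, I, O and R. R lay below A, M and B, so the doses overlapped, but within each set the high dose was highest. Against the low dose the log2 fold change was 0.73 (SE 0.43, adjusted p = 1.0, edgeR) and 0.74 (SE 0.16, adjusted p = 0.116) in the letter-set model. Over its alternatives the adjusted p ran from 0.0034 to 1, and Kcnh5 passed the thresholds with 4 factors (adjusted p = 0.0344) and in the letter-set model by the likelihood ratio test (0.0034, the lowest). Kcnh7, an ERG-type channel, was at 12.8 to 14.4 CPM in A, B and C, at 17.5 in H and 32.8 to 55.1 in I and the sets M-N-O and P-Q-R, with 1 count in G. Kcnh4, named after its values were seen, was at 9.74, 15.9 and 17.0 CPM in A, M and P and at 6.81, 12.2 and 11.3 CPM in C, O and R of the same sets. Its log2 fold change in the letter-set model was -0.52 (SE 0.11, adjusted p = 0.137) at the high dose vs. untreated, and with all cultures it was -0.08 (SE 0.44).

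Shaker channels sit along the axon and near its nodes. Kcna1 had the smallest unadjusted p of the 72 genes at the low dose vs. untreated. It was at 36.6, 41.8, 30.9 and 42.2 CPM in A, G, M and P, at 32.9, 22.9, 26.6 and 32.1 in B, H, N and Q, and at 31.0, 38.0, 28.1 and 35.1 in C, I, O and R. The low dose culture lay below the untreated one in each set, and B and Q lay above M. The log2 fold change was -0.40 (SE 0.16, unadjusted p = 0.0350, adjusted p = 1.0, edgeR), and the exact permutation p was 0.0857. Between these 2 conditions, no potassium channel gene had 4 cultures above or below the other 4, as 0.407% of all genes did. At the high dose Kcna1 had -0.19 (SE 0.16). Kcna2 was at 34.3, 51.6 and 47.6 CPM in A, M and P and at 7.59 in G, and at the low dose ran from 18.9 in H to 50.8 in N. Kcnab2, a beta subunit of these channels, was at 52.0 to 60.1 CPM in A, B and C, at 64.5 to 116.2 in the other 8 and at 15.2 in G. Kcna5 had 3.23, 3.52, 6.40 and 3.30 CPM at the low dose and 1.71, 7.39, 1.71 and 3.49 untreated, a log2 fold change of 0.63 (SE 0.31). The low dose lay above untreated in A-B-C and M-N-O and below it in G-H-I and P-Q-R.

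Kcng2 and Kcns3 encode silent subunits that join Kv2 channels. Kcng2 had 2.07, 0.584, 2.47 and 1.16 CPM untreated, 2.08, 4.32, 3.65 and 2.06 at the low dose and 2.31, 3.71, 4.32 and 2.07 at the high dose. Its log2 fold change was 0.90 (SE 0.45) at the low and 0.94 (SE 0.45) at the high dose vs. untreated, which share the untreated cultures, and A, B and C were nearly level. Kcns3 had 0.35 (SE 0.26) at the high vs. low dose, with values of 2.61 to 4.00 CPM in the low dose and 3.48 to 5.67 in the high dose cultures.

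A-type channels inactivate quickly and delay the first spike. Kcnd2, their main dendritic subunit, was at 29.6 to 30.2 CPM in A, B and C whatever the dose, at 31.1 to 44.3 in the other 8 and at 2.21 in G. Kcnd3 was at 13.7 to 25.3 CPM in 11 cultures and highest in G, at 27.6, with a log2 fold change of -0.27 (SE 0.17) at the low dose vs. untreated. The KChIP subunits bind calcium and carry A-type channels to the membrane. Kcnip2 was at 65.1, 9.60, 52.6 and 34.3 CPM in A, G, M and P, at 84.8, 64.9, 36.4 and 30.8 in B, H, N and Q, and at 86.0, 77.6, 66.1 and 39.1 in C, I, O and R. Values at the high dose were the highest of each set, yet the sets differed so much that the doses overlapped. Its log2 fold change vs. untreated was 0.66 (SE 0.38) with all cultures and 0.29 (SE 0.15) in the letter-set model. Kcnip4 ran from 4.03 CPM in C to 16.6 in O and was at 1.36 in G, with 0.45 (SE 0.18) at the high dose vs. low dose in the letter-set model and C below B.

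Of the calcium- and sodium-activated group, Kcnt1 encodes a channel opened by sodium after trains of spikes. It was at 39.8, 13.8, 37.8 and 45.8 CPM in A, G, M and P, at 34.6, 29.3, 38.8 and 40.9 in B, H, N and Q, and at 32.2, 32.2, 25.8 and 33.6 in C, I, O and R. Without G, the 4 high dose values lay below the 3 untreated ones, as did those of 0.839% of all genes. The log2 fold change was -0.25 (SE 0.15) with all cultures and -0.37 (SE 0.12, adjusted p = 0.342, edgeR) in the letter-set model. Kcnma1, the pore of the large-conductance calcium-activated (BK) channel, was at 44.1 to 98.0 CPM in 11 cultures and 9.40 in G, and its subunit Kcnmb4 was at 5.37 to 9.16 in A, B and C, 12.6 to 24.8 in the other 8 and 2.46 in G. Of the small-conductance channels that follow the action potential, Kcnn2 was at 5.67 to 7.77 CPM in A, B and C and at 19.9 to 47.2 in the other 8, and Kcnn3 was at 2.54 to 5.04 in 11 cultures and 12.3 in G. None of Kcnma1, Kcnmb4, Kcnn2 and Kcnn3 had an unadjusted p under 0.05 in the fit of all cultures.

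Among the inward rectifiers, Kcnj4 encodes Kir2.3, a neuronal channel that holds the resting potential. It was at 40.1, 1.17, 63.9 and 107.3 CPM in A, G, M and P, at 38.1, 66.7, 76.6 and 105.5 in B, H, N and Q, and at 33.8, 49.4, 48.3 and 83.7 in C, I, O and R. The high dose value was below the low dose value in each set and the lowest of its set outside G-H-I, but sets overlapped across the doses. The log2 fold change at the high dose vs. low dose was -0.50 (SE 0.53) with all cultures and -0.41 (SE 0.08, adjusted p = 0.0876, edgeR) in the letter-set model, the smallest adjusted p among the 72 genes there. Kcnj2 had 0.413 to 2.81 CPM in the 12 cultures. Kcnj11, the pore of the ATP-sensitive channel, was at 15.2 to 31.3 CPM outside G and had 2 counts in G. Kcnj8, the other ATP-sensitive pore, had 48 counts in all and is not among the 73 genes.

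Kcnj10 encodes Kir4.1, the main potassium channel of astrocytes and oligodendrocytes. Its values followed the letter sets, with 334, 325 and 298 CPM in P, Q and R, 220, 74.1 and 72.1 in M, N and O, 171, 117 and 116 in G, H and I, and 16.9, 24.5 and 24.3 in A, B and C. M lay above N and O, and no dose stood apart. The log2 fold change was -0.59 (SE 1.05) at the low and -0.66 (SE 1.04) at the high dose vs. untreated. Astrocyte markers summed to 4734 to 6200 CPM in A, B and C to 11234 to 15903 in P, Q and R and to 4841 to 10224 in the other 6, and precursor markers to 283 to 371 CPM in A, B and C and 791 to 1347 in the other 9. The part of these marker levels in the Kcnj10 values was not tested. Kcnj16, which joins Kir4.1 in glia and epithelia, had 1 to 22 counts in 11 cultures and 193 in G.

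No leak channel gene had an unadjusted p under 0.05 in the fit of all cultures. Kcnk1 was at 49.6 to 110.1 CPM outside G and 29.7 in G, and Kcnk2, a mechanically gated leak channel, was at 11.1 to 12.4 in A, B and C, 20.8 to 30.6 in the other 8 and 8.69 in G. Kcnk3 had 1.61 to 3.13 CPM outside G and 0.843 in G. Kcnk9 was at 4.90, 14.3 and 13.4 CPM in A, M and P, with 1 count in G, at 6.54, 6.49, 10.1 and 9.70 at the low dose and at 7.35, 14.9, 11.1 and 15.6 at the high dose. For Kcnk9 the high dose lay above the low dose in each set. The log2 fold change was 0.50 (SE 0.63), or 0.57 (SE 0.21, adjusted p = 0.287, edgeR) in the letter-set model. Kcnk13 encodes THIK-1, the leak channel of microglia. It was at 0.416, 0.413 and 0.455 CPM (5, 6 and 11 counts) in P, Q and R, below the 0.927 to 3.44 CPM of the other 9. Microglial markers were also lowest in P, Q and R. They were highest in N, at 1084 CPM, where Kcnk13 was at 1.70 CPM, while Kcnk13 was highest in G. The part of microglia in the Kcnk13 values was not tested.

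The high dose vs. low dose comparison does not use the untreated cultures, but culture G enters it through the shared filter, scaling, spread and factor. That factor was 2.955 in G and ran from -0.703 in P to 0.490 in N over the other cultures. In the fit of all cultures no gene of the 72 was without overlap between the 2 doses, against 1.19% of all genes. In the letter-set model without G, 11 of the 72 were higher at the high dose with an unadjusted p under 0.05 (15.3%, against 7.75% of all genes) and 6 were lower (8.33%, against 5.85%). Among the 11 were Kcna3, Kcnc1, Kcnc4, Kcnd2, Kcnh5, Kcnq5, Kcnip2, Kcnip4, Kcnj12 and Kcnk9, and the 6 were Kcnf1, Kcnh4, Kcnab3, Kcne5, Kcnj4 and Kcnk15. None passed the adjusted threshold. Without a model, 11 genes were higher at the high dose in all 4 sets (15.3% of the 72, against 11.7% of all genes) and 8 were lower (11.1% of the 72 and 11.1% of all genes). Of the 6 lower genes, Kcnf1, a silent subunit named after its values were seen, was at 24.9, 71.3, 72.7 and 56.5 CPM at the low and 20.2, 52.9, 53.9 and 30.3 CPM at the high dose. Its log2 fold change in the letter-set model was -0.51 (SE 0.12, adjusted p = 0.141, edgeR).

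**Figure D2:**
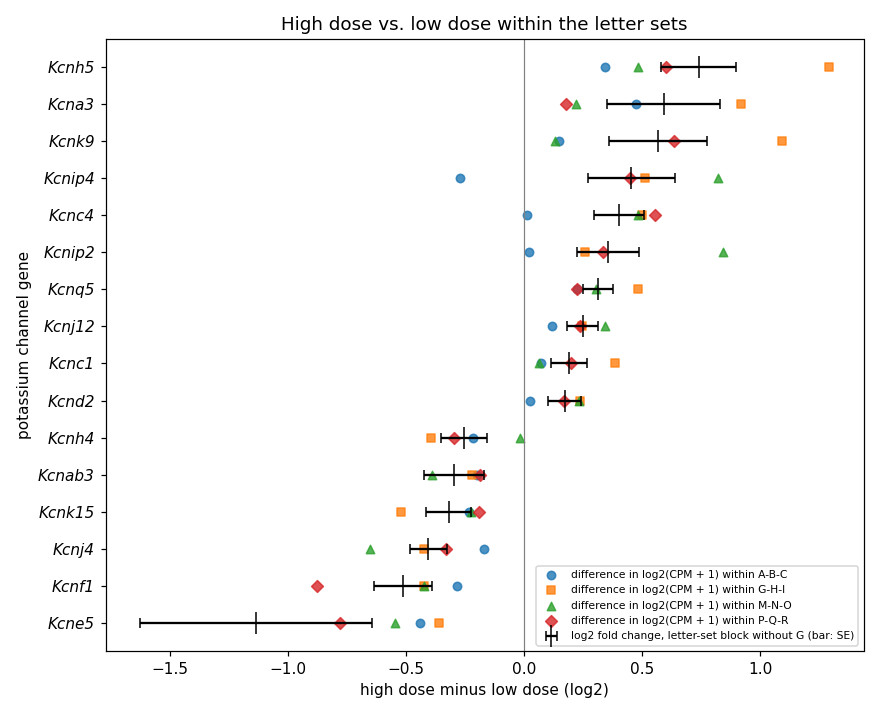
High dose minus low dose on the log2 scale (horizontal axis) for 16 potassium channel genes with an unadjusted p under 0.05 in the letter-set model without G (vertical axis), as the log2 fold change ± SE (black) and as the difference in log2(CPM + 1) within each letter set (symbols). Kcnh5 ranged from 0.34 in A-B-C to 1.29 in G-H-I, and Kcnip4 was below 0 in A-B-C.

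Against untreated cultures the letter-set model without G gave fewer such genes, both among the 72 and among all genes. At the low dose, 1 gene was higher (Kcna5; 4.35% of all genes were higher) and 7 were lower (among them Kcna1, Kcnd2, Kcnh4, Kcnh7, Kcnq3 and Kcnj12; the 7 are 9.72% of the 72; 3.19% of all genes were lower). At the high dose, 4 were higher (Kcnc4, Kcng2, Kcnh5 and Kcnq5; 5.76% of all genes were) and 5 were lower (Kcnh4, Kcnip1, Kcnn2, Kcnt1 and Kcnj4; 3.67% were). The smallest adjusted p was 0.644 at the low dose and 0.137 at the high dose. These 2 comparisons share the 3 remaining untreated cultures. The low dose cultures also enter the high dose vs. low dose comparison, in which Kcnd2 and Kcnj12 were higher.

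Culture G was the lowest of the 12 for 43 of the 72 genes (59.7%, against 28.4% of all genes) and the highest for 12 (16.7%, against 27.7%). Its lowest values spanned all the roles. Kcnh7 and Kcnk9 had 1 count in G, Kcnj11 had 2, and Kcng3 had 0, where up to 3 counts could have gone undetected. Kcnv1, a silent Kv2 partner, was at 0.324 CPM in G and at 5.84 to 62.4 in the other 11, and Kcnh3 at 0.843 against 19.0 to 81.5. These 3 genes, Kcng3, Kcnv1 and Kcnh3, and the next 2 were named after their values were seen. Kcnj13, which encodes Kir7.1, a channel of epithelia such as the choroid plexus, had 571 counts in G and 0 to 14 in each of the other cultures. Kcnq1, found in epithelia and the heart, had 175 counts in G and 5 to 26 in the others. The library did not mark strand, so reads of its antisense neighbour cannot be told apart from it. In the same library Ttr and Kl, which the choroid plexus expresses strongly, had 61529 and 1654 counts against 16 to 1119 and 1 to 19 elsewhere. These genes too were picked after their values were seen, and the part of any cell type in the potassium channel values of G was not tested.

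**Figure D3:**
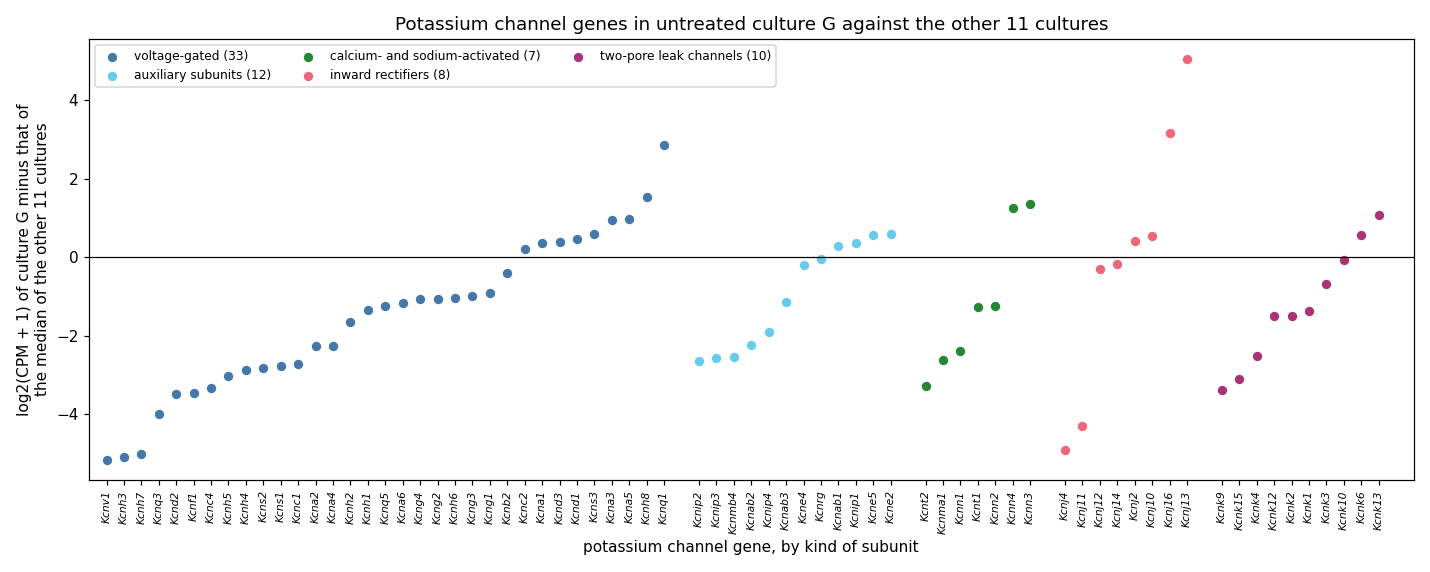
Difference between untreated culture G and the median of the other 11 cultures in log2(CPM + 1) (vertical axis) for 70 of the potassium channel genes, grouped by kind of subunit (colours) and sorted within it. Most voltage-gated genes lie below 0, while Kcnj13, Kcnj16 and Kcnq1 lie highest.

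Outside G, most of the spread lay between letter sets and not between doses. Over the 11 cultures, the letter sets held a median of 81.0% of the variance of log2(CPM + 1) of the 72 genes and the doses 6.83%, and over all genes 75.3% and 7.96%. The 2 shares overlap slightly because the sets are unbalanced without G. There are also more letter sets than doses, which by itself gives the sets a somewhat larger share. The doses held the larger share for 8 of the 72 genes (11.1%, against 6.22% of all genes), Kcna1, Kcna5, Kcnc4, Kcng3, Kcnh5, Kcnq5, Kcnt1 and Kcnk3, with the largest for Kcnc4 (58.9%, against 36.8% for the sets).

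Cultures A, B and C lay below the other 8 for 26 of the 72 genes (36.1%, against 19.3% of all genes) and above them for 5 (6.94%, against 16.7%). The 26 include subunits of every role. Kcnv1 was at 5.84 to 9.24 CPM in A, B and C and 40.4 to 62.4 in the other 8. Kcns1, a silent Kv2 partner, was at 1.53 to 1.92 and 11.6 to 15.8, and Kcnk12, a THIK-type leak subunit, at 5.93 to 7.17 and 19.9 to 44.2. Among the 5 higher genes were Kcnd1, Kcnh2, Kcne2 and Kcnk15. Of these, Kcnh2, the hERG channel gene, was at 42.5 to 52.8 CPM in A, B and C and 23.7 to 31.8 in the other 8, and Kcnk15 at 19.4 to 23.1 and 8.06 to 16.5. Neuronal markers summed to 4828 to 5354 CPM in A, B and C and to 3468 to 5369 in the others without G. Oligodendrocyte markers summed to 3011 to 4589 CPM in A, B and C and to 9946 to 26152 in the other 8. Precursor markers summed to 283 to 371 and 791 to 1347 CPM, and astrocyte markers to 4734 to 6200 and 4841 to 15903. The part of any cell type in these channel values was not tested. Kcnv1, Kcns1, Kcnk12, Kcnh2 and Kcnk15 were named after their values were seen.

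**Figure D4:**
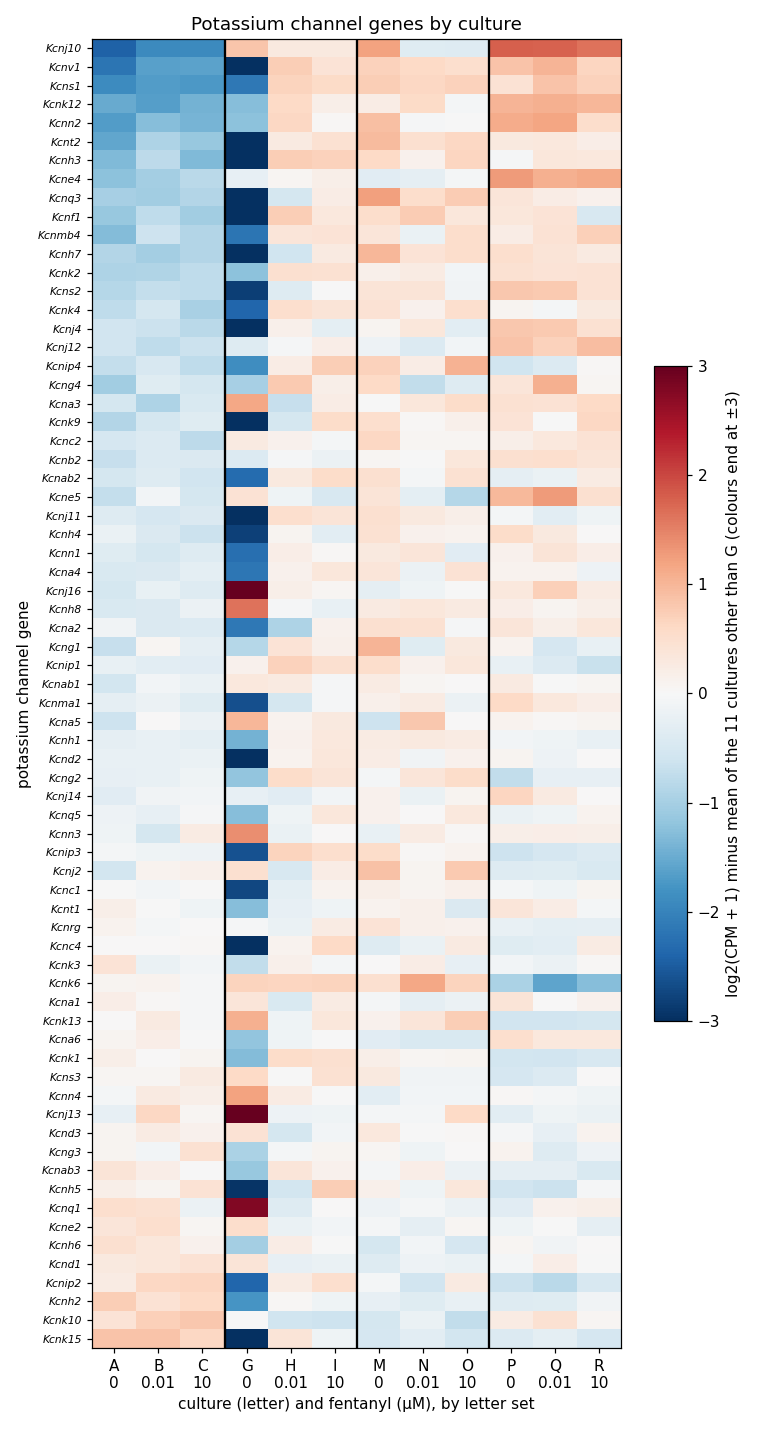
Heat map of log2(CPM + 1) minus its mean over the 11 cultures other than G (colour, ending at ±3) for 70 of the potassium channel genes (rows, sorted by their mean in A, B and C) in the 12 cultures (columns, by letter set, with the dose in μM below each letter). A, B and C have blue cells together in the upper rows and red ones together in the lowest rows, and column G stands apart.

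Cultures P, Q and R lay below the other 9 for 3 of the 72 genes (7.55% of all genes) and above them for 9 (12.5%, against 7.16%). The 3 were Kcnrg, Kcnk13 and Kcnk6. Kcnk6, a leak subunit named after its values were seen, was at 2.66, 1.38 and 1.90 CPM in P, Q and R and at 5.92 to 14.7 in the other 9. The 9 were Kcna6, Kcnb2, Kcns2, Kcne4, Kcne5, Kcnj10, Kcnj12, Kcnj4 and Kcnk12. The sets thus differed in opposite directions for different channel genes.

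**Figure D5:**
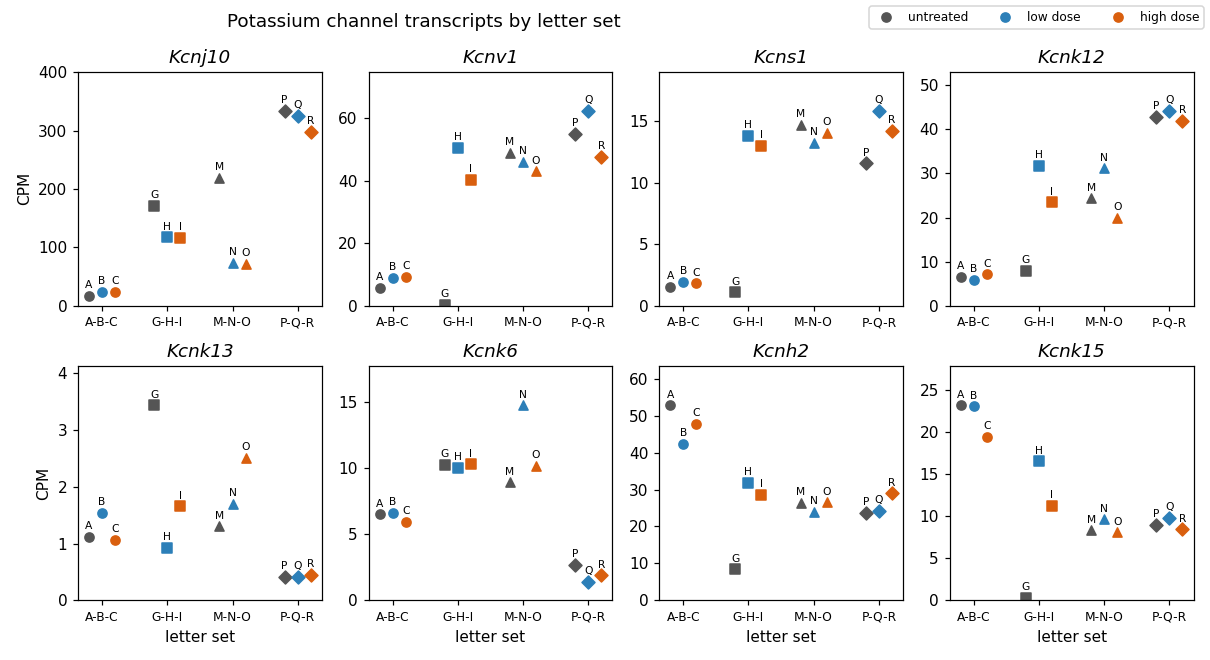
CPM (vertical axis, from 0) of 8 potassium channel genes by letter set (horizontal axis), one point per culture, coloured by dose. Kcnj10 lay between 16.9 and 24.5 CPM in A, B and C and between 298 and 334 in P, Q and R, while Kcnk13 and Kcnk6 were lowest in P, Q and R.

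Beside the channels, 2 lists of related genes were examined. Of 31 partners that anchor, traffic or modify potassium channels, 27 were tested, and of 15 genes of pumps, chloride cotransporters and pacemaker channels all 15 were tested. No gene of either list was called in any comparison. In the letter-set model without G, 7 of the 27 partners were higher at the high dose vs. low dose with an unadjusted p under 0.05 (Dpp6, Dpp10, Cntn2, Dlg2, Ank3, Akap5 and Nedd4l) and none was lower, where 7.75% of all genes were higher and 5.85% lower. Against untreated cultures in the same model, none of the 27 was higher, 5 were lower at the low dose (Cntn2, Dlg2, Ank3, Nedd4l and Bace1, where 3.19% of all genes were lower) and 3 at the high dose (Abcc8, Cntn2 and Lgi1, where 3.67% were). Cntn2, Dlg2, Ank3 and Nedd4l are also among the 7 above, and the same low dose cultures enter both comparisons. Dpp6 and Dpp10 encode subunits of A-type channels, and Ank3 the ankyrin that holds Kv7 channels at the axon initial segment. Ank3 was at 91.9, 141, 168 and 188 CPM at the low and 108, 200.1, 198 and 241 CPM at the high dose, higher in each set, with 0.34 (SE 0.09, adjusted p = 0.168, edgeR). Of the 15 transport genes, 2 were higher at the high dose vs. low dose in this model, among them Slc12a5 (7.75% of all genes), and 4 lower, among them Hcn4 and Atp1b2 (5.85% of all genes). Against untreated, none was higher and 2 were lower at each dose (3.19% and 3.67% of all genes).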

How the data were processed

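Whole-number counts per gene were deposited by the authors, who used STAR to align reads of poly(A)+ libraries to rn6 and featureCounts to assign them to genes. The kit does not mark strand, and antisense neighbours share reads. Here counts were scaled by TMM, filtered by filterByExpr and tested by quasi-likelihood in edgeR 4.0.16 (R 4.3.3) in 1 fit of 12 cultures with 1 RUVs factor, and Benjamini-Hochberg adjusted over 12271 genes. The study names RUVseq without its procedure. The fit of all cultures was also run on simulated counts, for high dose vs. untreated only. These counts held no letter-set differences and no culture like G, so they do not show how the fits handle either. Single genes were also compared by exact permutation of log2(CPM + 1). Cultures were grouped by the dose in their labels. Alternatives were no factor, 2 or 4 factors, the letter-set model with and without G, the likelihood ratio test, DESeq2 1.42.0 and its size factors, 2 other filters, only 8 cultures, and leaving out each culture. Genes named are the 5 with the smallest p per comparison, those without overlap, those called without G and a list fixed by role, with exceptions stated, and genes listed only within a count were named after their values were seen. The members and lists were chosen with earlier results of these data known. Symbols were used as the table gives them, and gene coordinates and sequences were not used here. Some genes that were tested and counted are not reported here by name.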

Additional observations from a re-analysis of the deposited data

Results flagged for a closer look

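Of 219 groups of 4 cultures, 21 (9.59%) held a culture whose gap to its nearest neighbour took up most of the range of the group, where chance flags about 1 in 20 groups. The values of 19 of them are given here. Untreated G was the lowest of 4 for Kcnc1 (2.85 CPM, others 23.6 to 27.9), Kcnc4 (4.73 CPM), Kcnd2 (2.21 CPM), Kcng3 (0 CPM) and Kcnt1 (13.8 CPM), and the highest for Kcnj13 (37.0 CPM, others 0 to 0.206). In these genes G lay apart from all the untreated cultures.

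Low dose B was the lowest for Kcns1 (1.92 CPM), Kcnv1 (9.0 CPM), Kcnt2 (5.08 CPM) and Kcnk2 (11.3 CPM), and the highest for Kcnj13 (0.923 CPM). High dose C was the lowest for Kcns1 (1.84 CPM), Kcnv1 (9.24 CPM) and Kcnk4 (4.27 CPM) and the highest for Kcnh2 (47.7 CPM), and untreated A was the lowest for Kcnab1 (17.9 CPM). These cultures belong to 1 letter set. Outside these, low dose N was highest for Kcna5 (6.40 CPM, others 3.23 to 3.52), low dose Q was highest for Kcne5 (3.92 CPM), and high dose O was lowest for Kcnt1 (25.8 CPM, others 32.2 to 33.6).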

How the results depend on the processing

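No potassium channel gene was called in the fit of all cultures. With 4 RUVs factors, 1 was called in high dose vs. untreated (Kcnc4) and 1 in high dose vs. low dose (Kcnh5). In the letter-set model without G by the likelihood ratio test, 1 (Kcnh4) and 2 (Kcnf1 and Kcnh5) were called. The shares of all genes under these 2 settings are not given here, so the calls are not read as a result about the channel genes. For the unadjusted counts below, shares of all genes are given only for the fit of all cultures and the letter-set model without G. The counts under the other settings are therefore not read as a result about the channel genes either. The count at an unadjusted p under 0.05 was 1 in low dose vs. untreated, and 3 with 2 factors, 12 with 4 factors, 8 in the letter-set model without G (7 by the likelihood ratio test), 2 with DESeq2 and with at least 10 counts in every culture, 0 with only the 8 cultures and 0 to 4 without 1 culture (0 without H or N, 4 without A). In high dose vs. untreated it was 2, and 1 with no factor, in the letter-set model with G and by the likelihood ratio test, 4 with 2 factors, 19 with 4 factors, 9 in the letter-set model without G (11 by the likelihood ratio test) and 1 to 10 without 1 culture (10 without M, 6 without R, 5 without G). In high dose vs. low dose it was 0, and 1 with 2 factors, 18 with 4 factors, 17 in the letter-set model without G (14 by the likelihood ratio test), 5 with only the 8 cultures, 3 with no factor and no G and 0 to 5 without 1 culture (5 without G). Without G, the low dose and untreated values did not overlap for 1 gene (Kcng3, lower, as for 0.750% of all genes). Those of the high dose did not for 2, Kcnc4 (higher, as for 1.17% of all genes) and Kcnt1 (lower, as for 0.839%). The medians of the log2 fold changes ran over the 25 alternatives from -0.07 to 0.48, -0.02 to 0.45 and -0.11 to 0.17. Their sign was opposite to that in the fit of all cultures in 4, 3 and 3 of the 25. Of 15 log2 fold changes of 10 genes, 0 changed direction under any alternative in which they were tested. These 15 were picked for their small p in the fit of all cultures, and the alternatives reuse mostly the same cultures. Models without the factor and G together, and the likelihood ratio test in the letter-set model without G, were chosen after seeing the data. The causes were not tested. Counts of 0 to 3, such as those of Kcng3 in G, are at the limit of this depth.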
